A study of Mus musculus with 14 samples.

Results

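Expression of 9 marker genes of Kupffer cells, the resident macrophages of the liver, was followed in whole liver RNA of male and female mice from 3 wk to 8 wk of age. The genes were Clec4f, Vsig4, Cd5l, Marco, Timd4, Cd163, Adgre1, Csf1r and Cd68. They were chosen by name, and every probe whose RefSeq accession belongs to one of these symbols was taken. In this way 8 of the 9 genes were found, out of 19,751 genes that were named on the arrays, and they had 11 of the 39,429 probes. Cd68, which codes for a glycoprotein of macrophage lysosomes, matched no probe accession and was not analysed here.

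Kupffer cells sit in the liver sinusoids, where they take up bacteria, immune complexes, dying cells and worn-out erythrocytes from portal blood. They are seeded before birth and then largely renew themselves. Their survival needs signals through the Csf1r receptor, and their identity is kept by ligands from sinusoidal endothelial and stellate cells and by transcription factors such as Nr1h3, Spic and Id3. In the mouse, Clec4f is largely restricted to Kupffer cells, whereas Adgre1 and Csf1r are found on macrophages of many tissues and on monocytes.

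Livers of CD-1 mice were divided into 6 groups by sex and age, with no treatment: M3, M4 and M8 for males of 3, 4 and 8 wk, and F3, F4 and F8 for females of the same ages. Each group had 2 pools of liver RNA, with 5 mice in a pool at 3 wk and 6 mice in a pool at 4 and 8 wk, so that the spread between single mice was not measured. In 7 comparisons (M8/F8, M4/F4 and M3/F3 between the sexes, and M8/M4, M8/M3, F8/F4 and F8/F3 between ages) a pool of the first group competed with a pool of the second on an Agilent mouse array, and a second array held the other pools with the dyes exchanged. Each group served in more than one comparison, so the comparisons are not independent of each other, and p-values measure the spread between pools and arrays. Ratios are given as log2 of male over female or of 8 wk over the younger age, first for the array of replicate 1 and then for that of replicate 2. Calls required an adjusted p under 0.05 in a limma fit of all arrays and a change of more than 1.5-fold in either direction, which is 0.58 on the log2 scale. They also required that a probe stood well above background on each of the 2 arrays in 1 or more of the groups compared. In RNA of whole liver, fewer Kupffer cells and less RNA of a gene per Kupffer cell cannot be told apart.

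Between 55.2% and 77.2% of the spots that were not controls were well above background in a channel. The 11 probes of the Kupffer cell markers were well above background in all 28 channels. Xist was lower in male liver and Ddx3y was higher on all 6 arrays that compared the sexes, in keeping with the labels. All 7 hepatocyte genes of a list that had a probe were well above background in every channel. In the comparisons with M8, the median ratio of the markers was lower on the array of replicate 2 than on that of replicate 1. The median over the 8 genes in M8/F8 was -0.47 and -0.70, that in M8/M3 was -0.30 and -0.49, and that in M8/M4 was -0.28 and -0.73. The counts of markers called in the comparisons with M8 are therefore also given without the M8 pool of replicate 2.

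Of the 3 ages, the most Kupffer cell markers were called between the sexes in adult liver. In M8/F8, 4 of the 8 genes were called, all lower in male liver: Marco, Timd4, Adgre1 and Clec4f. The call of Clec4f was lost with normexp and loess (-0.57), with median centring (-0.55) and with error-weighted averages (-0.58), and that of Adgre1 without the dye term (adjusted p = 0.075). Of all genes tested in this comparison, 6.42% were called in either direction and 3.75% were lower in male liver. The median ratio of the 8 genes was -0.58 and all 8 were below 0, while the median of the 13,525 genes tested was 0.00. With no threshold on the fold, 7 of the 8 genes had an adjusted p below 0.05, Cd163 being the exception, compared with 11.6% of all genes that were lower in male liver in this way.

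Marco, a scavenger receptor that binds bacteria and modified lipoproteins, differed the most between the sexes at 8 wk. Its signal was 357 in M8 and 680 in F8 on the array of replicate 1, and 250 in M8 and 565 in F8 on that of replicate 2, in arbitrary units. The log2 ratios were -0.93 and -1.18 (mean -1.05, SE 0.18, adjusted p = 0.011), which is 2.07-fold lower in male liver. Both male pools were below both female pools.

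Timd4, a phosphatidylserine receptor for the uptake of dying cells that marks long-lived resident macrophages, had log2 ratios of -0.60 and -0.74 in M8/F8 (mean -0.67, SE 0.12, adjusted p = 0.011). Clec4f, a lectin that binds galactose and N-acetylgalactosamine, had log2 ratios of -0.38 and -0.80 (mean -0.59, SE 0.12, adjusted p = 0.019). Its mean only just passed the fold threshold, and its arrays differed more than those of Timd4. Adgre1, which codes for the F4/80 antigen, had log2 ratios of -0.59 and -0.71 (mean -0.65, SE 0.14, adjusted p = 0.025). A second probe of Adgre1 gave -0.41 and -0.71 and fell short of the fold threshold with its mean of -0.56, so it was not called.

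Vsig4, Cd5l and Csf1r were lower in male liver at 8 wk by less than the fold threshold. Vsig4 is a complement receptor that captures particles coated with C3 fragments, and its log2 ratios were -0.41 and -0.69 (mean -0.55, adjusted p = 0.024). Cd5l, a secreted scavenger protein of macrophages, had -0.47 and -0.60 (mean -0.54, adjusted p = 0.014). Csf1r, the receptor of the growth factors Csf1 and Il34, had -0.47 and -0.65 (mean -0.56, adjusted p = 0.0072). These means correspond to expression ratios between 0.679 and 0.689, so that each of them just missed the threshold. Cd163, which takes up complexes of haemoglobin and haptoglobin, was not called. Its log2 ratios were -0.18 and 0.08 (mean -0.05, 95% confidence interval -0.51 to 0.41), at signals between 24.8 and 87.0 units over all 28 channels.

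**Figure D1:**
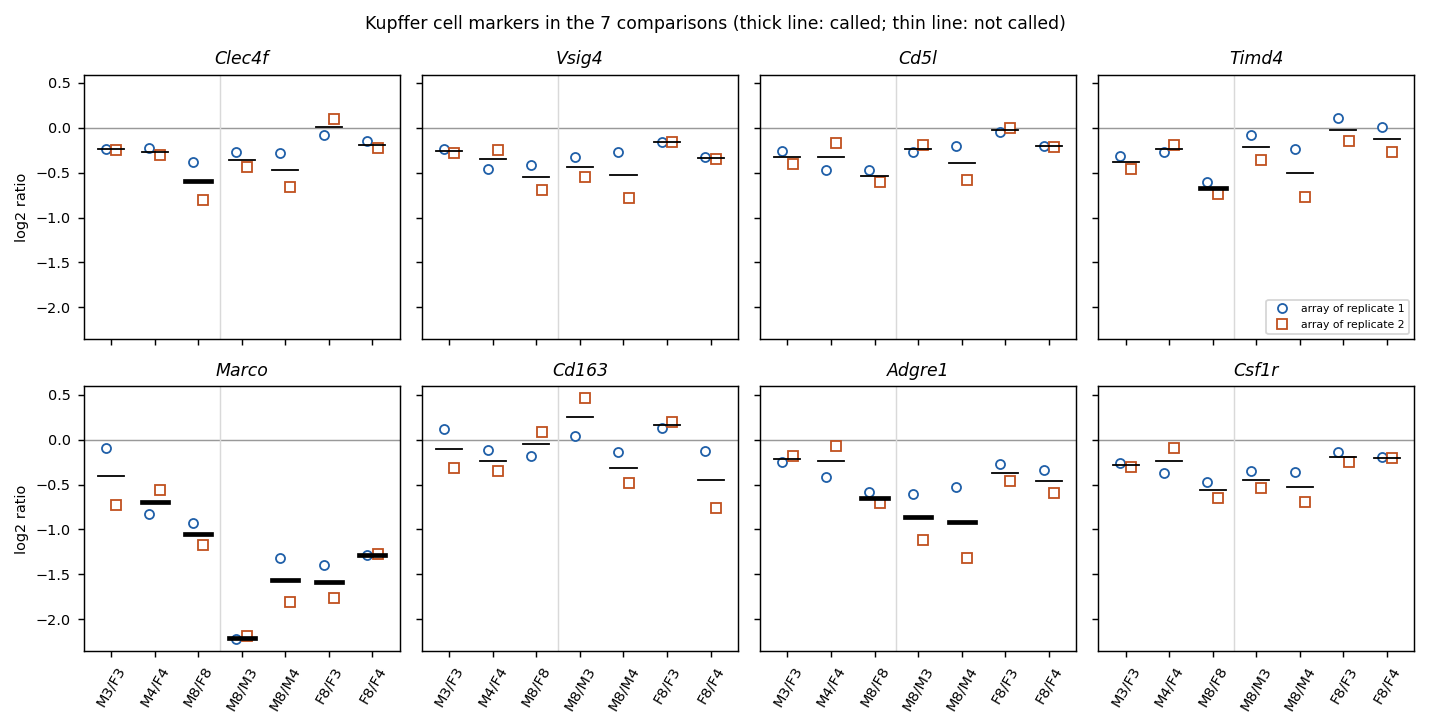
Log2 expression ratio (y axis) of 8 Kupffer cell markers in the 7 comparisons (x axis; sex comparisons left of the grey line, age comparisons right of it). Open circles and squares are the arrays of replicate 1 and 2, and the line is their mean, thick where the gene was called. Marco lies lowest, at -2.20 in M8/M3, and in M8/F8 all 8 means are below 0.

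The number of markers called in M8/F8 changed when an array was left out. Without the array of replicate 1, 7 of the 8 genes were called, and without the array of replicate 2 none was. Over all genes, 327 higher and 504 lower were then called in the first case and 265 higher and 348 lower in the second, compared with 361 and 507 on both arrays. When all 3 arrays with the M8 pool of replicate 2 were left out, a choice made after the values were seen, no gene was called in M8/F8. The 8 ratios then remained below 0 with a median of -0.44, and the adjusted p-values lay between 0.075 and 0.89. Over all genes, the calls in M8/F8 then came to 125 higher and 170 lower. Whether the M8 pool, the F8 pool or the smaller number of arrays lies behind these changes was not tested.

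At 3 and 4 wk the median ratio of the markers between the sexes lay nearer to 0 than at 8 wk. In M3/F3 none of the 8 genes was called by limma, against 0.517% of all genes (0.337% were lower in male liver), and 3 of them had an unadjusted p below 0.05. With error-weighted averages of the arrays the count was also 0. All 8 mean ratios were below 0, from -0.41 for Marco to -0.10 for Cd163, with a median of -0.27, whereas 49.5% of all genes were above 0. Timd4 had -0.31 and -0.46, Cd5l had -0.26 and -0.40, and Clec4f had -0.23 and -0.25. The arrays of Marco lay far apart at 3 wk, at -0.09 and -0.73. Without the array of replicate 1, Marco was called in M3/F3 (log2 ratio -0.80, adjusted p = 0.048).

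In M4/F4 Marco was the only marker called, with log2 ratios of -0.83 and -0.56 (mean -0.69, SE 0.18, adjusted p = 0.049), against 1.59% of all genes (0.971% were lower in male liver). This call was lost without either array, with adjustment within the comparison (adjusted p = 0.16) and with the slide as a block (adjusted p = 0.065). The other 7 genes had mean ratios from -0.35 for Vsig4 to -0.23 for Cd163. The median of the 8 genes was -0.25 and all of them were again below 0, beside 50.9% of all genes above 0.

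Whether the sex difference at 8 wk was larger than at 3 or 4 wk was tested directly. On the arrays that compared the sexes, a choice made after the values were seen, the ratio in M8/F8 minus that in M3/F3 was -0.64 for Marco (adjusted p = 0.25), -0.43 for Adgre1 (adjusted p = 0.32) and -0.35 for Clec4f (adjusted p = 0.35). Against M4/F4 the difference was -0.44 for Timd4 (adjusted p = 0.37) and -0.32 for Csf1r (adjusted p = 0.36). None of the 8 genes was called in either of these differences, against 3.79% and 1.23% of all genes. By limma, an unadjusted p below 0.05 was reached by 1 marker in the first (Marco) and by 2 in the second (Timd4 and Csf1r), so a larger sex difference in the adult was not shown for any one marker.

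With age, Marco fell in both sexes. Its signal was 446 and 387 units in M8 beside 2083 and 1759 units in M3, and 952 and 1034 units in F8 beside 2510 and 3508 units in F3. In M8/M3 its log2 ratios were -2.22 and -2.19 (mean -2.20, SE 0.18, adjusted p = 0.00067), a 4.61-fold fall. In M8/M4 they were -1.32 and -1.80 (mean -1.56, SE 0.18, adjusted p = 0.0023). In female liver the fall was 2.99-fold from 3 to 8 wk, with log2 ratios of -1.40 and -1.76, and 2.43-fold from 4 to 8 wk, with log2 ratios of -1.28 on both arrays (adjusted p = 0.0022 and 0.0050). The highest of these 8 arrays was at -1.28, so that no 8 wk pool overlapped its younger partner. Marco kept its fall in F8/F3 and F8/F4 under every alternative that was tried, with adjusted p-values up to 0.047. Without the M8 pool of replicate 2 its fall in M8/M3 was -2.22 (adjusted p = 0.054) and in M8/M4 -1.32 (adjusted p = 0.12), both on 1 array.

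In the fit of 7 comparisons, no difference between the sexes in the fall of Marco was called. From 3 to 8 wk the difference passed the fold threshold, but its adjusted p was above 0.05. M8/M3 minus F8/F3 was -0.62 (95% confidence interval -1.24 to -0.01, adjusted p = 0.265) and M8/M4 minus F8/F4 was -0.28 (95% confidence interval -0.89 to 0.33, adjusted p = 0.75). With 6 group means in place of 7 comparisons, the first of these differences was called (log2 -0.62, adjusted p = 0.022). The change of Marco from 3 to 4 wk, which was obtained through the 8 wk pools, was -0.64 in male liver (adjusted p = 0.36) and -0.30 in female liver (adjusted p = 0.80). No marker was called by limma in these contrasts, against 0.292% and 0.0931% of all genes, and an unadjusted p below 0.05 was reached by 1 marker in male liver, which was Marco, and by 0 in female liver. Error-weighted averages called none either.

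Adgre1 was the other marker called with age, in male liver. Its log2 ratios in M8/M3 were -0.60 and -1.12 (mean -0.86, SE 0.14, adjusted p = 0.0083), and those in M8/M4 were -0.52 and -1.31 (mean -0.92, SE 0.14, adjusted p = 0.0065). The second probe of Adgre1 gave means of -0.71 and -0.76 and was called in both. In female liver the means were -0.37 in F8/F3 (adjusted p = 0.15) and -0.47 in F8/F4 (adjusted p = 0.077), and neither was called. The difference between the sexes was -0.50 from 3 to 8 wk (95% confidence interval -0.97 to -0.02, adjusted p = 0.25) and -0.45 from 4 to 8 wk (adjusted p = 0.40), so a fall particular to males was not shown. These calls changed with the arrays used. Without the array of replicate 2, Adgre1 was not called in M8/M3 (-0.73, adjusted p = 0.090) or in M8/M4 (-0.63, adjusted p = 0.056). Without all arrays of the M8 pool of replicate 2 it was called in M8/M3 (-0.71, adjusted p = 0.043) and not in M8/M4 (-0.63, adjusted p = 0.051).

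In all, 2 of the 8 genes were called in M8/M3, Marco and Adgre1, where 17.9% of all genes were called and 10% fell, and the same 2 were called in M8/M4, where 10.8% were called and 6.39% fell. Many liver genes changed in this period, and a count of 2 is read against these shares. The median of the 8 genes was -0.40 in M8/M3 and -0.52 in M8/M4, beside 0.01 and 0.02 for all genes. At any fold, 3 of the 8 genes fell with an adjusted p below 0.05 in M8/M3 (Marco, Adgre1 and Csf1r), compared with 20.3% of all genes, and 7 of the 8 did so in M8/M4, compared with 14.8% of all genes. With the fold threshold, the count changed when an array was left out. Without the array of replicate 1 in M8/M4, 7 genes were called, and without that of replicate 2 only Marco was. Over all genes, 528 higher and 821 lower were called in the first case and 381 and 586 in the second. With all arrays of that M8 pool left out, the counts were 1 in M8/M3, which was Adgre1, and 0 in M8/M4, and the medians were -0.32 and -0.29. The calls over all genes fell too, from 1133 higher and 1449 lower to 405 and 671 in M8/M3, and from 666 higher and 954 lower to 165 and 317 in M8/M4.

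The other markers were not called with age in male liver. Clec4f had -0.27 and -0.44 in M8/M3 (adjusted p = 0.11) and -0.28 and -0.66 in M8/M4 (adjusted p = 0.043). Timd4 had -0.08 and -0.36 in M8/M3 (adjusted p = 0.31) and -0.23 and -0.78 in M8/M4 (adjusted p = 0.033). Cd5l had -0.27 and -0.20 in M8/M3 (adjusted p = 0.20). Vsig4 and Csf1r lay between these and Adgre1, with means of -0.44 and -0.45 in M8/M3 and of -0.53 and -0.53 in M8/M4. None of these 5 genes passed the fold threshold. Cd5l had -0.20 and -0.59 in M8/M4 (adjusted p = 0.045), and the M8/M4 arrays of each lay well apart.

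In female liver the ratios of Clec4f, Cd5l and Timd4 between 3 and 8 wk lay close to 0. Clec4f had log2 ratios of -0.08 and 0.09 in F8/F3 (mean 0.01, 95% confidence interval -0.28 to 0.29). Cd5l had -0.04 and 0.00 (mean -0.02, interval -0.26 to 0.22), and Timd4 had 0.11 and -0.15 (mean -0.02, interval -0.30 to 0.26). These intervals leave room for changes of up to about 0.30 in either direction. The only gene called in F8/F3 was Marco, beside 11.7% of all genes called and 6.65% that fell, and likewise in F8/F4, beside 6.02% called and 3.73% that fell. The median of the 8 genes was -0.09 in F8/F3 and -0.27 in F8/F4, beside 0.02 for all genes in both.

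The test of sex by age called none of the 8 genes, from 3 to 8 wk or from 4 to 8 wk, where 3.38% and 1.33% of all genes were called. The contrast from 3 to 8 wk sets arrays scanned on different days against each other, and that from 4 to 8 wk arrays scanned on the same day. By limma, 2 genes had an unadjusted p below 0.05 in the first of these contrasts (Marco and Adgre1) and 1 in the second (Csf1r, difference -0.32, adjusted p = 0.33). Error-weighted averages also called none. The differences were below 0 for 7 of the 8 genes in both contrasts, Cd163 being the exception. Their medians were -0.26 and -0.28, beside 0.00 and -0.01 for all genes. Without the M8 pool of replicate 2 the first median was -0.23, with 8 genes below 0, and the second was -0.06, with 6 below 0. Without the array of replicate 2 in M8/M4 alone the second was -0.04, with 5 below 0.

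Cd163 was called in no comparison. Its mean ratios ranged from -0.45 in F8/F4 to 0.25 in M8/M3, and its arrays were of opposite sign in M3/F3 (0.11 and -0.32) and M8/F8. The SE of its ratios was 0.19, compared with 0.09 for Csf1r. Csf1r itself had 3 probes that did not all give the same picture. The second probe had means of -0.49 in M8/F8, -0.45 in M8/M3 and -0.53 in M8/M4, close to those of the first. The third gave -0.32 in M8/F8 but 0.00 in M8/M3, and it was called as higher in F8/F3, with log2 ratios of 0.37 and 0.81 (mean 0.59, adjusted p = 0.032), where the first gave -0.13 and -0.25. Which transcripts each probe reads was not tested.

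With arrays of one replicate number assumed to share pools, a relative level was obtained for each group from the 7 arrays of each replicate number, as a log2 value around the mean of the 6 groups. M8 was the lowest group for 7 of the 8 genes, with both M8 values below those of every other group. Among the 12,849 genes with values on all arrays, 15.4% had this order. Clec4f was at -0.32 and -0.60 in M8, at -0.07 and -0.15 in M3, at -0.04 and 0.08 in M4, at 0.16 and 0.09 in F3, at 0.07 and 0.18 in F8 and at 0.21 and 0.40 in F4. Values of F8 overlapped those of F3 and M4, and no other groups overlapped. Adgre1 ran from M8 (-0.61 and -0.93) through F8 (-0.17 and -0.04), M3 (0.14 and 0.01), M4 (0.06 and 0.22) and F3 (0.25 and 0.31) to F4 (0.32 and 0.42), and M3 overlapped M4.

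Female liver at 4 wk was the highest group for Cd5l, Clec4f, Vsig4 and Adgre1, with both values above those of every other group, an order held by 2.95% of all genes. In the test of F4 over F3 through the 8 wk pools, none of these genes was called. Their differences ran from 0.10 for Adgre1 to 0.19 for Clec4f. For Timd4 and Csf1r, F4 had the highest mean but overlapped F3. Marco was the exception in its order, which went from M8 (-1.50 and -1.75) through F8 (-0.60 and -0.58), M4 (-0.15 and 0.07), M3 (0.74 and 0.43) and F4 (0.68 and 0.66) to F3 (0.82 and 1.17). Only M3 and F4 overlapped. For Vsig4, M3, M4 and F8 could not be ordered, with values from -0.14 to 0.10. For Cd5l, neighbours overlapped from M3 through M4 and F8 to F3.

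**Figure D2:**
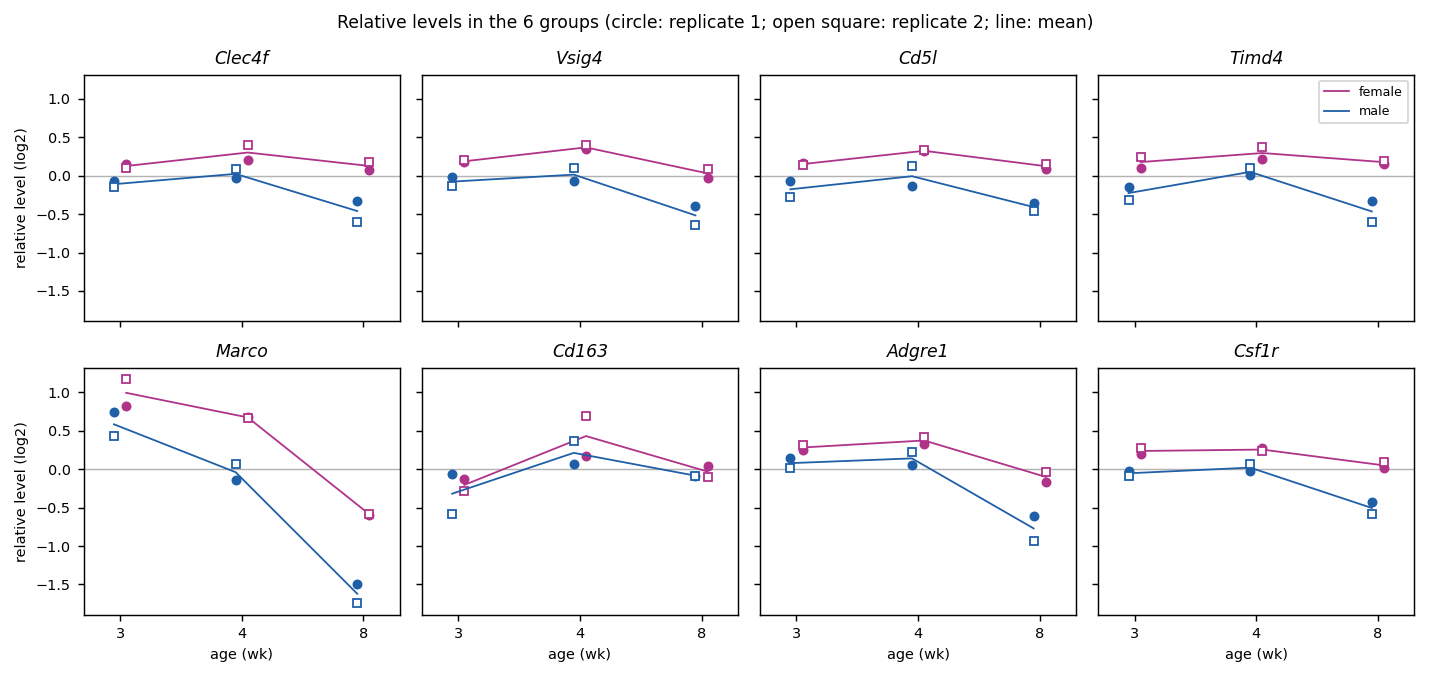
Relative level (y axis, log2 around the mean of the 6 groups) of 8 Kupffer cell markers by age in wk (x axis) in female (purple) and male (blue) liver. Filled circles are pools of replicate 1, open squares pools of replicate 2, and lines join the means. Male liver at 8 wk is lowest for every gene but Cd163, and Marco spans the widest range, from -1.75 to 1.17.

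Across the 14 arrays, Vsig4, Csf1r, Clec4f, Timd4 and Cd5l varied together. Pearson's r of the log2 ratios was 0.90 for Vsig4 and Csf1r, 0.89 for Clec4f and Vsig4, and 0.85 for Cd5l and Timd4. The median r with the other 7 genes was 0.82 for Csf1r and 0.76 for Cd5l, and lower for Adgre1, at 0.60. Adgre1 still had an r of 0.83 with Csf1r and 0.80 with Vsig4, and its lower values included 0.40 with Cd5l. Marco stood apart, with a median r of 0.07 and its highest r, 0.67, with Adgre1. Cd163 also stood apart, with a median r of 0.10. These values describe 14 arrays that share groups and dyes, and they were not tested.

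**Figure D3:**
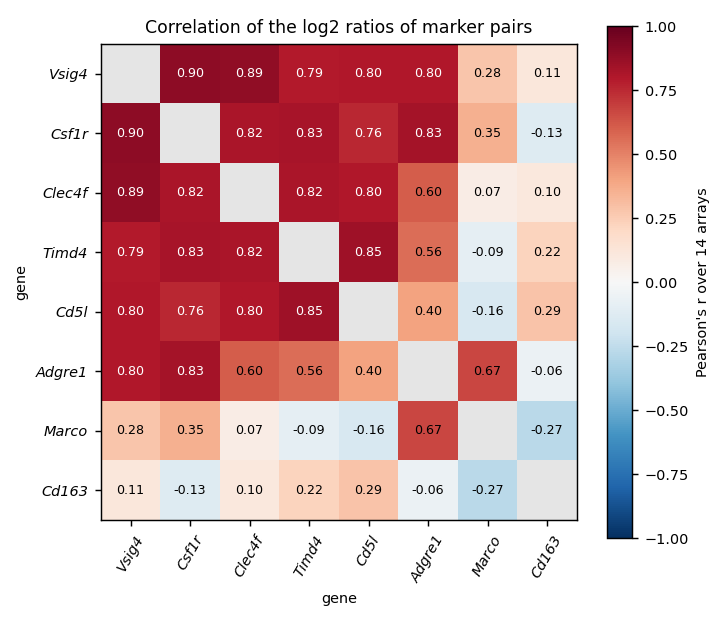
Pearson's r of the log2 ratios over 14 arrays for each pair of 8 Kupffer cell markers (both axes), with the value printed in each cell. Vsig4, Csf1r, Clec4f, Timd4 and Cd5l form a block of r between 0.76 and 0.90, whereas the median r with the other genes is 0.07 for Marco and 0.10 for Cd163.

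The genes whose 14 ratios were most like those of each marker were sought among 12,296 named genes whose probes stood well above background throughout. For Clec4f these were Nod1 (r = 0.95), P2ry4 (r = 0.95) and Cfp (r = 0.93), and for Vsig4 they were Themis2 (r = 0.95), Zfp40 (r = 0.93) and Ptpn18 (r = 0.92). For Csf1r they were Gbp8 (r = 0.97), Cd48 (r = 0.95) and Hdac9 (r = 0.95), and for Adgre1 they were Samhd1 (r = 0.97), Gimap8 (r = 0.95) and Slfn2 (r = 0.95). Timd4 was most like Fzd1 (r = 0.95), Adgre4 (r = 0.93) and Clcn4 (r = 0.93). Cd5l was most like Ccng1 (r = 0.93), Zfp40 (r = 0.92) and Clcn4 (r = 0.92). Marco was most like Ccl2 (r = 0.99), the chemokine that recruits monocytes, then Naa20 (r = 0.98) and Tceal8 (r = 0.98). The likeness was weakest for Cd163, with r = 0.86 for Eaf2, 0.84 for Gdf15 and 0.84 for Utrn. These r are the highest among 12,296 candidates over 14 arrays that share groups. No link between a marker and a gene like it was tested.

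Promoter sequences of 7 of the 9 genes were found in RefSeq (build GRCm38.p6). The 250 bases before the start are shown for Clec4f and Timd4, which varied together, and for Marco, which did not. The span of the Timd4 gene begins at chr11:46810786, so the last bases shown for it lie within that span. The core GAGGAA of the motif of PU.1 (Spi1), its longer form GAGGAAGT and the MAF core TGCTGAC were sought on both strands, in windows that run on 50 bases past the start. Capitals mark a match.
Clec4f, chr6:83656117-83656366, minus strand: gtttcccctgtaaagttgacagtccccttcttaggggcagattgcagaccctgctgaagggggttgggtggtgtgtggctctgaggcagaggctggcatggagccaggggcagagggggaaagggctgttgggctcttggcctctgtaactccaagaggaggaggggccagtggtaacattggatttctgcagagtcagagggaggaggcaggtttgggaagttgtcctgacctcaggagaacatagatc
Timd4, chr11:46810549-46810798, plus strand: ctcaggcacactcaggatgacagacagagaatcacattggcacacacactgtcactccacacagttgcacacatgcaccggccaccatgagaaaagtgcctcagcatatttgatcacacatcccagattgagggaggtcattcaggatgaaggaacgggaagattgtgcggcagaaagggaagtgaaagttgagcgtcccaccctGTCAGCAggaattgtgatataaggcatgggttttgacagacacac
Marco, chr1:120505025-120505274, minus strand: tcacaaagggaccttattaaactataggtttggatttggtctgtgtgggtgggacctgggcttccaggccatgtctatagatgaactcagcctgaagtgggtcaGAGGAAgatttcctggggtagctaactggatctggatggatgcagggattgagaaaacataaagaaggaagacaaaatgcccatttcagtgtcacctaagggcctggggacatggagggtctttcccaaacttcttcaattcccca
Marco had 1 copy of GAGGAA, which begins 146 bases before the start, and Timd4 had 1 copy of TGCTGAC, on the opposite strand, 45 bases before the start. Clec4f had none of the 3 motifs in this window. Of the other genes, Vsig4 and Cd68 had 2 copies of GAGGAA each and Cd5l had 1. The motif GAGGAA stood in 28.3% of 32,851 promoters, GAGGAAGT in 3.20% and in none of these 7 genes, and TGCTGAC in 4.67%. A match is a run of letters and not a site of binding.

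A few transcription factors of macrophages are given for M8/F8, and their list is not described as a whole. The calls, the count and the median of the list are not reported here, so those named do not stand for the rest. Spic, which Kupffer cells share with macrophages of the spleen, had -0.49 and -0.58 (mean -0.53, adjusted p = 0.022), below the fold threshold, as had Irf8 with -0.27 and -0.50 (mean -0.39, adjusted p = 0.0065). Nr1h3, which hepatocytes also express, had 0.00 and -0.14 (mean -0.07, adjusted p = 0.62), and Id3 had 0.10 and -0.81. Spi1, which codes for PU.1, met the brightness criterion in F8/F4 only (-0.43, adjusted p = 0.33).

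The ligands of the niche were called in no comparison by limma. In M8/F8 the median of the 5 tested was -0.19 and 2 of them, Csf1 and Gdf2, had an unadjusted p below 0.05. Csf1, the growth factor that acts through Csf1r, had log2 ratios of -0.21 and -0.48 in M8/F8 (mean -0.34, adjusted p = 0.041) and -0.28 and -0.49 in M8/M3 (mean -0.38, adjusted p = 0.027), both below the fold threshold. Il34, the other ligand of Csf1r, had -0.03 and -0.34 in M8/F8 (adjusted p = 0.53). Gdf2, which codes for BMP9, a ligand made by stellate cells, had -0.35 and -0.31 (mean -0.33, adjusted p = 0.039), whereas Dll4 had a mean of 0.04 and Tgfb1 one of -0.07. Csf2 and Bmp10 did not meet the brightness criterion in M8/F8.

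Of 5 genes listed for proteins that bind the markers or other receptors of macrophages (C3, Hp, Fasn, Gas6 and Hpx), 2 were called in M8/F8, and the median of the 5 was -0.46. C3, whose fragments are bound by Vsig4, had log2 ratios of -0.36 and -1.22 (mean -0.79, adjusted p = 0.00037), 2 values that lay far apart, and Gas6, which bridges dying cells to receptors of phagocytes other than the markers, had -0.59 and -0.91 (mean -0.75, adjusted p = 0.00072). Gas6 rose in female liver, by 0.86 in F8/F3 and 0.66 in F8/F4, and had a mean of 0.02 in M8/M3. Haptoglobin (Hp), whose complex with haemoglobin is taken up by Cd163, had 0.78 and -0.44 in M8/F8, arrays of opposite sign. Fasn, an intracellular target of Cd5l, was called once, as lower in M8/M3 (-0.96, adjusted p = 0.029). All 5 genes are expressed by hepatocytes or other liver cells as well.

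A list of other genes of tissue macrophages was described for M8/F8 as well. Of 30 genes on a list that holds none of the 9 markers, 6 were lower in male liver and 1 was higher, with a median of -0.46 and 4 genes above 0. The 6 were Hpgd (-0.81), an enzyme that breaks down prostaglandins, Lyz2 (-0.76), a lysozyme, Cfp (-0.71), the complement regulator properdin, Cybb (-0.63), a subunit of the phagocyte oxidase, Ctss (-0.62), a lysosomal protease, and C1qa (-0.59), a subunit of C1q. The log2 ratios of Lyz2 were far apart, at -1.25 and -0.27. The gene that was higher was C6, a late complement component that is not specific to macrophages, with 2.91 and 2.74 (mean 2.83, adjusted p = 0.00015). With age the median of the list was -0.32 in M8/M3 and -0.35 in M8/M4 for males, and in females it was -0.10 in F8/F3 and -0.16 in F8/F4. In M8/M3 Hpgd fell (-0.77) and C6 rose (2.93), while Fcgr1 (-1.23, adjusted p = 0.12) and Laptm5 (-0.77, adjusted p = 0.063) were not called. In M8/M4 Hpgd (-0.88), Siglec1 (-0.75) and Msr1 (-0.59) fell and 1 gene was called higher, where the highest ratio of the list was 2.17. No gene of the list was called in F8/F3, and in F8/F4 only Siglec1 was (-0.70).

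Markers of other liver cells were described in the same way for M8/F8. By limma, none of 10 genes of sinusoidal endothelial cells was called and their median was -0.09. The only one with an unadjusted p below 0.05 was Stab2, a scavenger receptor of these cells, at -0.33 (adjusted p = 0.0041). None of 7 genes of stellate cells was called (median -0.23, 3 at an unadjusted p below 0.05), and none of 7 genes of hepatocytes (median -0.41, 6 at an unadjusted p below 0.05). The hepatocyte genes lay on both sides of 0, with 3 above it, from -0.57 for Alb, whose arrays gave -0.01 and -1.13, to 0.57 for Serpina1a. Of 9 genes of dendritic and antigen presenting cells, 3 were lower in male liver (median -0.29): H2-Ab1 (-0.85) and Cd74 (-0.59), which belong to the MHC class II pathway, and Clec9a (-0.83). Of 7 lymphocyte genes, 1 was lower (Cd3g, -0.86; median -0.21), and of 6 erythroid genes 1 was higher (Alas2, 1.89; median -0.03). Of 7 mitosis genes, 1 was lower (Top2a, -1.12; median -0.10).

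**Figure D4:**
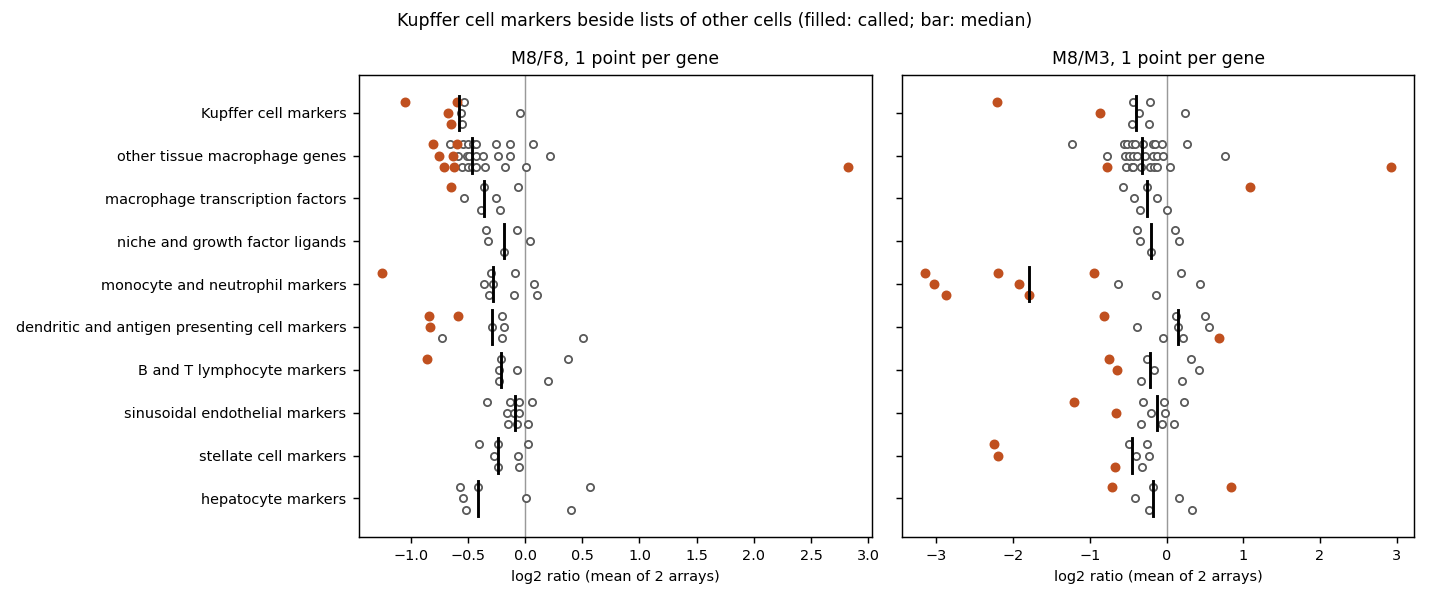
Log2 expression ratio (x axis, mean of 2 arrays) of each gene in M8/F8 (left) and M8/M3 (right) for the Kupffer cell markers and 9 lists of other genes (y axis). Filled points were called, open points were not, and the bar is the median of the list. In M8/F8 the bar of the Kupffer cell markers lies at -0.58, and in M8/M3 that of the monocyte and neutrophil markers lies at -1.79. Points of genes not well above background in M8, such as Ngp, are limits.

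Most genes of monocytes and neutrophils moved with age in the same direction as Marco. Of 11 tested genes, 7 fell in M8/M3 (median -1.79) and 7 in F8/F3 (median -1.66), beside 10% and 6.65% of all genes. In each of these comparisons 2 of the 11 were above 0, up to 0.43 in M8/M3 and 0.09 in F8/F3. In M8/M4 6 of 10 fell (median -0.74) and in F8/F4 6 of 11 fell (median -1.03), beside 6.39% and 3.73% of all genes. Among them were Mpo (-3.03 in M8/M3 and -2.71 in F8/F3), Chil3 (-2.87 and -2.86) and S100a8 (-2.20 and -2.92), genes of immature or mature granulocytes, and Cx3cr1 (-1.79 and -1.66), a chemokine receptor of monocytes. The signal summed over the 11 genes ranged from 8151 to 14109 in M3 and from 5475 to 9914 in M8, and from 12015 to 27651 in F3 and from 6104 to 13669 in F8. Ngp, another granulocyte gene, fell in F8/F3 (-2.96). It was well above background on no array of M8, so its ratio in M8/M3 is a limit and is not given, though Ngp is among the 11 genes of that median. Nor was Ngp well above background on every array of F8. In M3/F3, S100a8 (-0.97 and -1.03 on its arrays), S100a9 (-1.03) and Ngp (-0.74) were lower in male liver, whereas in M8/F8 the median of 9 genes was -0.28 and Chil3 was called (-1.25). The part of these cells in the fall of Marco was not tested.

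The other lists also held genes that changed with age. All 8 mitosis genes fell in the 4 age comparisons, with medians from -3.82 in M8/M3 to -3.02 in M8/M4. Among them were Bub1 (-4.71 in M8/M3 and -4.28 in F8/F3), a kinase of the spindle checkpoint, and Mki67 (-4.02 and -3.16), which codes for the proliferation marker Ki-67. Some genes of the mitosis and erythroid lists were not well above background in M8 or F8, so the medians of both lists include ratios that are limits. Erythroid genes fell as well, 4 of 8 in M8/M3 (median -0.67), where Alas2, the first enzyme of haem synthesis in red cells, rose (1.37), and 5 of 9 in F8/F3 (median -0.99). Slc4a1, the anion exchanger of red cells, had -1.93 in M8/M3 and -1.61 in F8/F3. The collagen genes Col1a1 and Col3a1 of the stellate cell list fell in M8/M3 (-2.25 and -2.19), and the median of that list was -0.45. Of the sinusoidal endothelial genes, Lyve1 (-1.20) and Gpr182 (-0.65) fell in M8/M3, with a list median of -0.13. In M8/M3 the dendritic cell list had 1 gene that rose (Flt3, 0.69) and 1 that fell (Clec9a, -0.81), whereas in F8/F3 3 rose, H2-Eb1 (1.01), H2-Ab1 (0.90) and Cd74 (0.89). In M8/M3 minus F8/F3, Clec9a (-1.01) and H2-Ab1 (-0.69) were called lower and Flt3 (0.68) higher. In M8/M3 the lymphocyte list had 2 that fell (Cd3g, -0.75, and Cd8a, -0.64), and the hepatocyte list 1 of each (Serpina1a, 0.83, and Alb, -0.71), while by limma no gene of these lists was called in F8/F3, where 2 genes of each had an unadjusted p below 0.05. Col1a1 (-1.93), Col3a1 (-1.70) and Lyve1 (-0.94) fell in F8/F3 as well.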

How the data were processed

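Each array was deposited by the authors as the output of Agilent Feature Extraction 10.7.1.1. It holds intensities in arbitrary units, from which background was subtracted and which were dye-normalized within each array (linear and LOWESS), the log10 ratio of red over green, and other columns of flags and modelled errors. The deposited log10 values of the series table were identical to these ratios. Spots flagged as non-uniform (0 to 10 per array) were left out, no spot was saturated, and spots of one probe were averaged. Ratios were converted to log2 and turned by the dye of each pool, as the labels give it. Symbols were found through RefSeq accessions for 26,055 probes, and a gene was represented by its probe with the highest mean intensity. In R 4.3.3, limma 3.58.1 fitted 7 coefficients and a dye term to all 14 arrays, with Benjamini-Hochberg adjustment of p across every probe and comparison at once, or across every probe of a contrast of 2 comparisons. The fit was tested on simulated data. The authors' Rosetta software was not used here, and error-weighted averages with a p threshold of 0.0001 stood in for it as an alternative. Lists were described by counts and medians. The rule was to name the genes with the 2 to 4 largest ratios with age and those with a stated role for a marker, and it was followed in part. Other genes of a list were named after their values were seen, and some results of the lists are not reported here. The members and lists were chosen with earlier results of these data known. Arrays were scanned on 2 days. The sample labels name no slide, and what is called a slide here is 1 of 4 inferred sets of arrays. That arrays of one replicate number share pools is not stated, and was assumed from the replicate numbers and the ratios: across 20,451 probes, the differences between replicates correlated at 0.83 between M8/F8 and M8/M3 and at 0.27 between F8/F3 and F8/F4, but also at -0.47 between M8/M3 and F8/F3 and at -0.19 between M3/F3 and M4/F4, which share no group. The number of arrays limits the precision.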

Additional observations from a re-analysis of the deposited data

How the results depend on the processing

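With no fold threshold the count of Kupffer cell markers called was 7 in M8/F8 and 7 in M8/M4. In M4/F4 it was 0 with adjustment within each comparison and 0 with the slide as a block. With 6 group means the sex by age contrast from 3 to 8 wk had 1. When one array of a comparison was left out, the count ranged from 0 to 1 in M3/F3, was 0 in M4/F4, and ranged from 0 to 7 in M8/F8, from 1 to 2 in M8/M3 and from 1 to 7 in M8/M4. Without the M8 pool of replicate 2, chosen after seeing the data, it was 0 in M8/F8, 1 in M8/M3 and 0 in M8/M4. With a replicate block, which treats equal replicate numbers as a pairing, the count in M8/F8 was 4, those of the other comparisons also equalled the counts without it, and no call of a marker changed. With normexp and loess the count in M8/F8 was 5, as Cd5l (-0.59) and Csf1r (-0.59) were called and Clec4f (-0.57) was not. Clec4f also lost its call in M8/F8 with median centring (-0.55) and with error-weighted averages (-0.58), and Adgre1 in M8/F8 without the dye term (adjusted p = 0.075). No called ratio changed sign. For all genes, the share of calls above 0 in M8/M3 minus F8/F3 was 48.5%, and 38.2% with normexp and loess. The cause of these changes was not tested. With 1 array on one side after leaving out the other, its spread is taken from the other comparisons.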
